A study of Rattus norvegicus with 23 samples.

Results

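The 42 genes described here encode lysosomal enzymes, membrane proteins, proton pump subunits and 2 regulators of the lysosome. They were taken from a written list, and all 42 were found as rows of a log2 expression table of 20301 genes. The table covers microglia isolated by CD11b/c magnetic bead sorting from the brains of Wistar rat pups of both sexes, which were operated at postnatal day 7 and studied 24 h later. Each of the 4 groups was defined by injection and operation. Sham pups (n = 6) had a neck incision under isoflurane, with no injection listed for them. LPS pups (n = 5) received 0.1 mg/kg of Escherichia coli lipopolysaccharide, a bacterial cell wall component that triggers inflammation, into the peritoneum 4 h before the same sham operation. NaCl/HI pups (n = 6) received saline and then hypoxia-ischemia (HI), in which the left common carotid artery was tied off and the pups then breathed 8% oxygen for 50 min. LPS/HI pups (n = 6) received the same dose of LPS 4 h before the same HI. Sham and LPS samples held the entire brain of 1 pup, whereas NaCl/HI and LPS/HI samples pooled the ipsilateral hemispheres of 2 pups, so wherever an HI group is set against Sham or LPS, HI and the tissue taken cannot be told apart.

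The lysosome is the acidic compartment in which phagocytes degrade what they take up. Cathepsins cut proteins, glycosidases remove sugars from glycoproteins and glycolipids, lipid hydrolases and their helper proteins clear sphingolipids and cholesterol esters, and the vacuolar proton pump (V-ATPase) keeps the lumen acid. Microglia, the resident macrophages of the brain, are rich in these proteins, and many inherited lysosomal storage diseases with damage to the nervous system come from loss of one of them. The transcription factor TFEB binds E-boxes of the CLEAR type, centred on the palindrome CACGTG, in the promoters of many lysosomal genes.

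Promoter sequence is shown for the members that carry such an E-box, because Tfeb itself is among the 42 genes. A promoter of 300 bases (250 before to 50 after a transcript start) was matched for 36 of the 42 members in a RefSeq table of build GRCr8, another build than that used for the expression values; the start coincided with the outermost start of the gene in 21 of the 36. The 6-base core CACGTG, which reads the same on both strands, occurred in 8 of the 36 (22.2%) and in 6.42% of the 33469 promoters of the table. The 8-base palindrome TCACGTGA, which contains that core, occurred in 5 of the 36 (13.9%) and in 0.777% of all promoters. The following runs are written 5′ to 3′ in the direction of transcription, with every copy in capitals. They are from Lamp1, an abundant glycoprotein of the lysosomal membrane with 5 copies, from the aspartic protease Ctsd, from the membrane protein Cln3, from the proton pump subunit Atp6v0d1, from the lysosomal calcium channel Mcoln1, and from the galactosidase Glb1, which holds the 6-base core alone.
Lamp1 (chr16:83075085-83075256, minus strand): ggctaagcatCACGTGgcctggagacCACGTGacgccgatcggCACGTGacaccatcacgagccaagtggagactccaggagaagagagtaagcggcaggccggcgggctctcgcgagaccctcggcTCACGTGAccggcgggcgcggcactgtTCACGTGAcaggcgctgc
Ctsd (chr1:206968822-206968988, minus strand): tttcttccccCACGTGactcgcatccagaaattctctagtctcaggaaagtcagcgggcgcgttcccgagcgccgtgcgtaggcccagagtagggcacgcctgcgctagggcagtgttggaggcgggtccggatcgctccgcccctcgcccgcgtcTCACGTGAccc
Cln3 (chr1:190597951-190598005, minus strand): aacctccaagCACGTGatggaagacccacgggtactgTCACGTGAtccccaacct
Atp6v0d1 (chr19:50357284-50357311, minus strand): cccattgtggTCACGTGAgatgcagtgc
Mcoln1 (chr12:6358250-6358279, plus strand): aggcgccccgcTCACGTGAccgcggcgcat
Glb1 (chr8:122963608-122963633, plus strand): gctccggagtCACGTGgcctgcagag
The other members with the core were Ctsf and Cd63, with 1 copy each. Mcoln1 had a further copy of the 6-base core before its start.

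**Figure D1:**
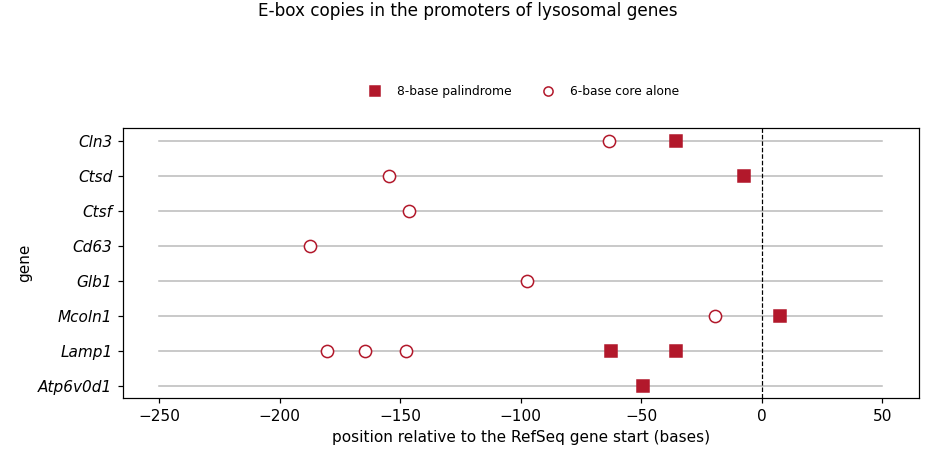
Positions of CACGTG (open circles) and TCACGTGA (filled squares) in the promoters of the 8 members that hold them; the x axis is the distance in bases from the RefSeq transcript start (dashed line), and each row is a gene. Lamp1 has 5 copies, and the copies of the 8-base palindrome lie within 66 bases of the start.

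The values are log2 expression after the rlog transformation, which draws differences toward 0, so differences are given on that scale and the levels of members are not set against one another, because the values are not per length. A member was called changed at an adjusted p under 0.05 with limma, without a fold threshold. The share of all 20301 genes called in the same direction is given as the background. For groups that do not overlap, the background is the count of all 20301 genes that separate them in either direction. It was 2818 for LPS and Sham, 206 for NaCl/HI and Sham and 1294 for LPS/HI and Sham. Between the treated groups it was 846 for LPS/HI and LPS, 271 for LPS/HI and NaCl/HI and 1483 for LPS and NaCl/HI. In these bulk samples, fewer cells of a type and less RNA per cell cannot be told apart. On this scale, which also rises with transcript length, 41 of the 42 had a mean above that of the median gene, the exception being the proton pump subunit Atp6v0d2 (mean 0.71). The median of the members' spread within groups was 0.08 (SD).

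In the comparison of LPS with Sham, 12 of the 42 members were called. Of these, 9 were higher after LPS, namely Ctsz, Fuca1, Ctsh, Psap, Gusb, Glb1, Grn, Ctsc and Atp6v0d1, and 3 were lower, namely Ctsl, Tpp1 and Npc1. The 9 make up 21.4% of the members, where 10.2% of all genes were called higher, and the 3 make up 7.14%, where 7.56% of all genes were called lower. The median member differed by 0.06 and the median gene by -0.01, and the difference was positive for 31 members (73.8%) and for 44.3% of all genes.

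In the comparison of NaCl/HI with Sham, no member was called by limma, although some other settings called up to 6. The exact Wilcoxon rank-sum test called no gene, and the smallest adjusted p that it gave over all genes was 0.213. At the same group sizes it called 1998 genes for LPS/HI against Sham. The backgrounds were 0.00985% of all genes called higher and 0% called lower, and 14 of the 42 members (33.3%) had an unadjusted limma p under 0.05, against 14.8% of all genes. The median member differed by 0.04 and the median gene by -0.01. Leaving out NaCl/HI replicate 4, which lay nearer to the Sham mean than to its own over all genes, gave 6 called members (14.3%) in place of 0, where 2.74% of all genes were then called. Leaving out LPS replicate 4 or 5 gave 1 (2.38%), with 0.0591% and 0.0394% of all genes called, and array weights gave 5 (11.9%, against 3.21% of all genes). With 19 in place of 16 residual degrees of freedom, or after quantile normalization, 2 members were called (4.76%, against 0.729% and 0.0493% of all genes).

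LPS/HI against Sham gave 6 members called higher (14.3%, background 5.3%) and none lower (background 3.48%). They were Ctsz, Fuca1, Ctsh and Psap, which were also called higher after LPS, and the membrane proteins Cd63 and Cd68. The count fell to 2 or 3 without Sham replicate 2, 3, 4, 5 or 6, LPS/HI replicate 2, 3, 4 or 5, or NaCl/HI replicate 1, and only Ctsz and Fuca1 stayed called whichever single sample was left out. The omissions that gave 2 or 3 left between 3.79% and 8.48% of all genes called in either direction, against 8.77% with all samples. With each library centred on its median the count was 2 (4.76%, against 8.52% of all genes), and with array weights it was 26 (61.9%, against 42.2% of all genes). With a replicate block it was 1 (2.38%, against 3.7% of all genes). The median member differed by 0.06 and the median gene by -0.0024 in this comparison. It shares its Sham samples with the previous comparisons.

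Between the treated groups, LPS/HI against LPS gave 1 member called higher, Ctsk (2.38% of members, background 1.22%), and 1 called lower, Gusb (background 0.719%); with each library centred on its median the split was 1 higher and 4 lower (2.97% of all genes called), after quantile normalization 1 and 0 (1.61%), and with array weights 10 members (23.8%) and 20% of all genes were called. LPS/HI against NaCl/HI gave no called member by limma without array weights, where 0.153% of all genes were called higher and 0.0493% lower; 5 of the 42 members (11.9%) had an unadjusted p under 0.05, against 10.6% of all genes, and the smallest adjusted p of the exact Wilcoxon test over all genes was 0.162. With array weights 9 members (21.4%) and 14.4% of all genes were called there. LPS against NaCl/HI gave 6 members called higher (14.3%, background 5.32%) and 5 called lower (11.9%, background 3.66%), or 6 and 3 after median centring. The interaction is the LPS difference after HI minus the LPS difference after sham operation. Its control group was injected with saline after HI, had no injection listed after sham operation, and differed in the tissue taken. HI, injection and tissue thus cannot be told apart in it. For the interaction, 1 member was called lower, Ctsz (background 0.719%), and none higher (background 0.365%). With array weights, 8 members (19%) and 10.9% of all genes were called. Without the weights, 11 of the 42 members had a positive interaction value (26.2%), against 55.0% of all genes, and the median member was at -0.08 with the median gene at 0.01.

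No member passed a fold change above 2 together with an adjusted p under 0.05 in any comparison. Relative to Sham, that rule called 0.069% of all genes in LPS, 0.00493% in NaCl/HI and 0.0936% in LPS/HI. It called 0.0345% in LPS/HI relative to LPS, 0.0148% in LPS/HI and 0.0591% in LPS relative to NaCl/HI, and 0.00985% for the interaction. By adjusted p alone, 17 members (40.5%) were called in at least 1 of the 7 comparisons and 25 in none, where 23.1% of all genes were called in at least 1.

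**Figure D2:**
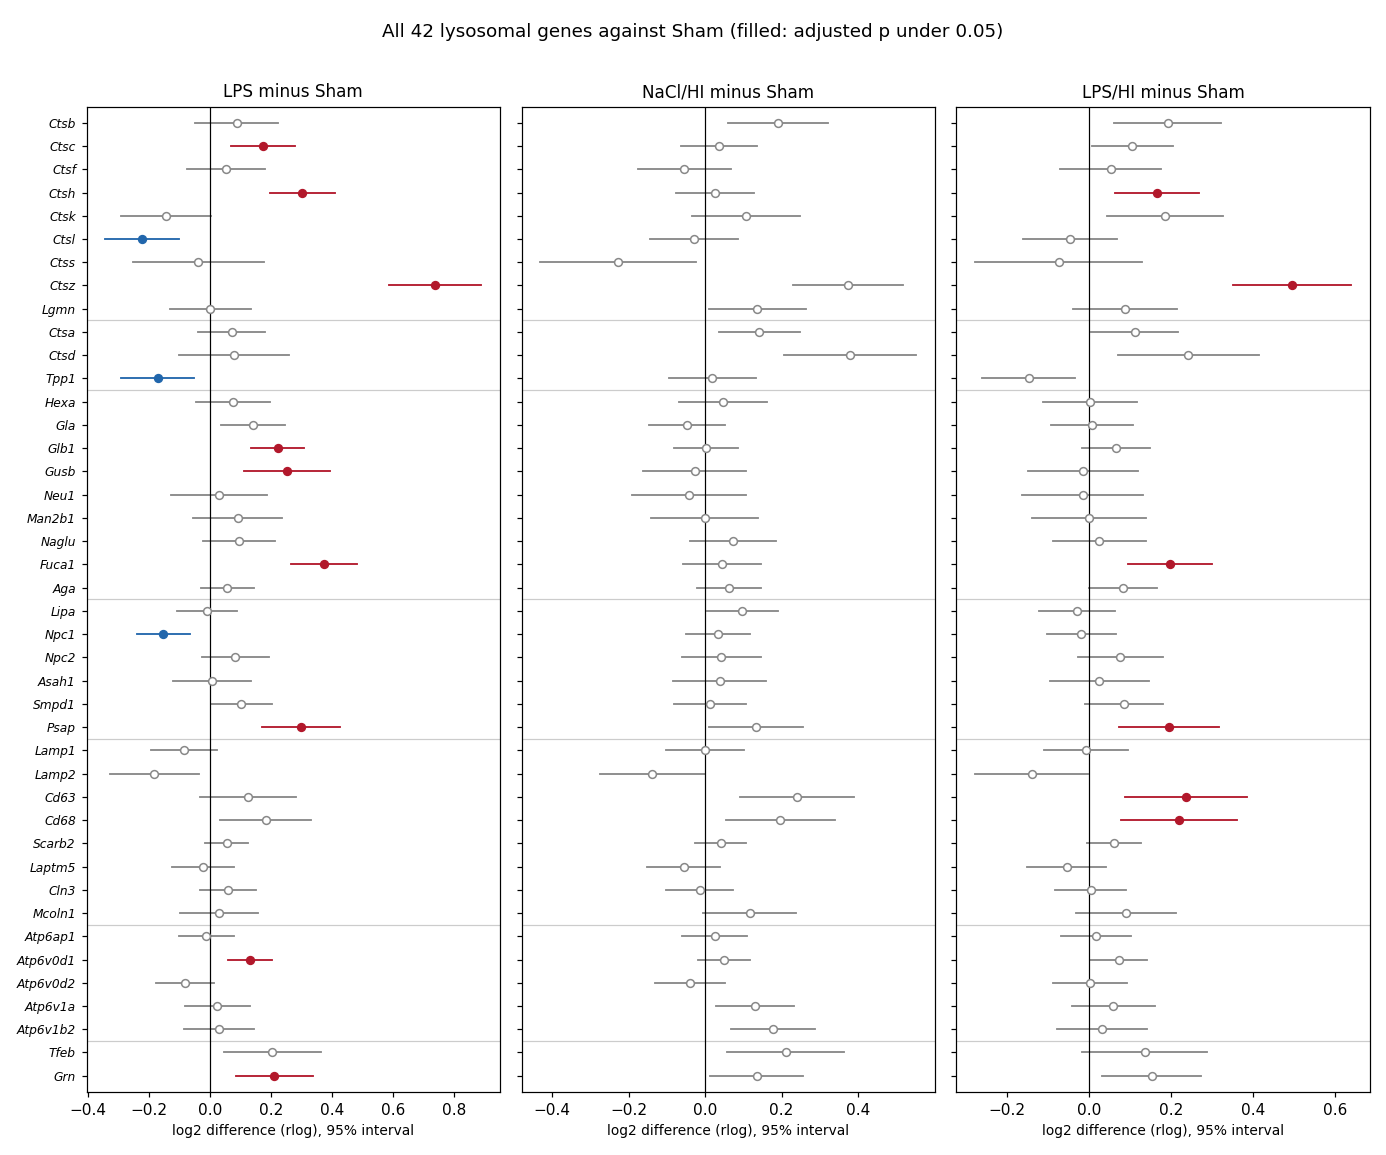
Log2 difference (x axis, rlog scale) of each of the 42 members from Sham in the LPS, NaCl/HI and LPS/HI groups, with 95% confidence intervals from limma; filled red and blue points are members called higher and lower, open grey points were not called, and grey lines separate functional classes. Ctsz has the largest difference after LPS (0.74) and after LPS/HI (0.50), and no point is filled for NaCl/HI.

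Among the 9 cysteine proteases, Ctsz, Ctsh and Ctsc were called higher (33.3%, background 10.2%) and Ctsl lower (11.1%, background 7.56%) after LPS. Ctsz and Ctsh were called higher after LPS/HI (22.2%, background 5.3%). Ctsz encodes cathepsin Z (also cathepsin X), a carboxypeptidase, and had the widest range of group means of all members (0.74). Its values in Sham ran from 13.42 through a median of 13.45 to 13.53. In LPS they were 14.25, 14.32, 14.07, 14.37 and 13.99. In NaCl/HI they ran from 13.58 (median 13.86) to 13.94, and in LPS/HI from 13.82 (median 13.97) to 14.11. Every treated sample thus lay above every Sham sample, and every LPS sample above every NaCl/HI sample, while LPS and LPS/HI overlapped. The difference from Sham was 0.74 after LPS (SE 0.07, 1.66-fold, limma adjusted p = 1.11e-06) and 0.50 after LPS/HI (SE 0.07, limma adjusted p = 0.000941). After NaCl/HI it was 0.37 (95% interval 0.23 to 0.52) with a limma adjusted p of 0.0658, which missed the threshold although the groups did not overlap. The LPS difference was smaller after HI than after sham operation, with an interaction of -0.61 (SE 0.10, limma adjusted p = 0.0121). This call was lost with a replicate block. In the order of group means, Sham was lowest, followed by NaCl/HI and LPS/HI, which did not differ beyond the threshold (0.12, limma adjusted p = 0.564), and LPS was highest, with LPS/HI differing from LPS by -0.24 (limma adjusted p = 0.0850).

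Ctsh encodes cathepsin H, an aminopeptidase. It ran from 12.63 (median 12.78) to 12.86 in Sham, and its LPS values were 13.11, 13.11, 13.03, 13.07 and 13.03. It ran from 12.68 (median 12.81) to 12.91 in NaCl/HI and from 12.84 (median 12.92) to 13.10 in LPS/HI. All LPS samples lay above all Sham and NaCl/HI samples, and LPS/HI overlapped each other group. Ctsh differed from Sham by 0.30 after LPS (SE 0.05, limma adjusted p = 0.000333) and by 0.17 after LPS/HI (SE 0.05, limma adjusted p = 0.0378, lost on leaving out any of 9 samples). Against NaCl/HI, Ctsh was higher by 0.28 in LPS (limma adjusted p = 0.00158).

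Ctsc, cathepsin C, activates serine proteases of granules. Its Sham values ran from 11.67 (median 11.85) to 11.999, and its LPS values were 12.03, 12.01, 12.003, 12.04 and 12.02, the narrowest group of the gene (SD 0.015). NaCl/HI ran from 11.75 (median 11.90) to 11.96 and LPS/HI from 11.88 (median 11.94) to 12.06. LPS lay above Sham and NaCl/HI without overlap, by a small margin over the highest Sham sample. The LPS difference of 0.17 (SE 0.05, limma adjusted p = 0.0204) was lost without Sham replicate 2, the lowest Sham sample (limma adjusted p = 0.0516).

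Ctsl, the endopeptidase cathepsin L, went the other way. Sham ran from 14.26 (median 14.29) to 14.36, and LPS gave 14.08, 14.06, 14.23, 14.002 and 14.002. NaCl/HI ran from 14.11 (median 14.28) to 14.41 and LPS/HI from 14.17 (median 14.21) to 14.40. LPS lay below all Sham samples and overlapped both HI groups. Ctsl fell by 0.22 after LPS against Sham (SE 0.06, limma adjusted p = 0.0111) and by 0.19 against NaCl/HI (limma adjusted p = 0.0403, lost on leaving out any of 10 samples), and LPS/HI differed from Sham by -0.05 (limma adjusted p = 0.631). Ctsk, the collagen-degrading cathepsin K, was called in both comparisons of LPS with an HI group, being higher by 0.33 in LPS/HI than in LPS (SE 0.07, limma adjusted p = 0.0215, no overlap) and differing by -0.25 in LPS from NaCl/HI (limma adjusted p = 0.0308, overlapping). The first call was lost on leaving out any of 4 samples and the second any of 6. The summed level of 9 markers of mural cells and fibroblasts moved with Ctsk: it lay between 13.07 and 13.44 in LPS, between 13.30 and 13.63 in NaCl/HI and between 13.47 and 13.59 in LPS/HI on the log2 scale, with 4 of the 9 markers called higher in LPS/HI than in LPS and 3 called lower in LPS than in NaCl/HI; their part in the Ctsk differences was not tested. The other 4 genes of the class, Ctsb, Ctsf, Ctss and legumain (Lgmn), were called in no comparison.

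Of the 3 serine and aspartic proteases, Tpp1 was called lower after LPS against Sham (33.3%, background 7.56%). Ctsd and Tpp1 were called lower in LPS than in NaCl/HI (66.7%, background 3.66%). Ctsd, the main aspartic protease of the lysosome, ran from 14.83 (median 14.88) to 15.01 in Sham. LPS gave 15.01, 15.10, 15.16, 14.80 and 14.79. It ran from 14.997 (median 15.26) to 15.47 in NaCl/HI and from 14.99 (median 15.12) to 15.37 in LPS/HI. NaCl/HI was highest and overlapped Sham through 1 sample, and the LPS samples were split, with replicates 4 and 5 below the other 3. Ctsd was higher in NaCl/HI than in Sham by 0.38 (95% interval 0.21 to 0.55), with a limma adjusted p of 0.0936, and LPS differed from NaCl/HI by -0.30 (SE 0.09, limma adjusted p = 0.0339), a call that was lost on leaving out any of 6 samples, with the highest limma adjusted p (0.104) without LPS replicate 4. Tpp1, a tripeptidyl peptidase lost in a childhood neuronal ceroid lipofuscinosis, ran from 12.07 (median 12.29) to 12.39 in Sham, with LPS at 12.07, 12.12, 12.17, 11.96 and 12.13, NaCl/HI from 12.21 (median 12.28) to 12.36 and LPS/HI from 11.999 (median 12.10) to 12.27. Both LPS-treated groups overlapped Sham, and LPS lay below NaCl/HI without overlap. Tpp1 fell by 0.17 after LPS against Sham (SE 0.06, limma adjusted p = 0.043) and by 0.19 against NaCl/HI (limma adjusted p = 0.0411); LPS/HI differed from Sham by -0.15 (limma adjusted p = 0.0929). The call against Sham was lost on leaving out any of 12 of the 23 samples, and that against NaCl/HI on leaving out any of 10. The third gene, Ctsa, was not called.

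All 9 glycosidases and glycoprotein-degrading enzymes had a positive difference after LPS against Sham, as had 44.3% of all genes, with a class median of 0.09. Of the 9, 3 were called higher, Fuca1, Glb1 and Gusb (33.3%, background 10.2%). Against NaCl/HI, LPS was higher for these 3 and for Gla. After NaCl/HI the differences of the 9 from Sham ran from -0.05 to 0.07. Fuca1 encodes the fucosidase that trims fucose from glycoproteins. It ran from 12.30 (median 12.46) to 12.53 in Sham, was 12.74, 12.88, 12.76, 12.85 and 12.76 in LPS, and ran from 12.35 (median 12.47) to 12.55 in NaCl/HI and from 12.47 (median 12.65) to 12.70 in LPS/HI. The LPS samples lay above all samples of the other groups, and LPS/HI overlapped Sham through its lowest sample. Fuca1 rose by 0.37 after LPS (SE 0.05, limma adjusted p = 3.40e-05) and by 0.20 after LPS/HI (SE 0.05, limma adjusted p = 0.0183), and LPS/HI differed from LPS by -0.17 (limma adjusted p = 0.075).

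Glb1, the acid beta-galactosidase that degrades gangliosides, ran from 11.49 (median 11.63) to 11.68 in Sham. LPS gave 11.78, 11.86, 11.80, 11.86 and 11.87. NaCl/HI ran from 11.54 (median 11.59) to 11.71 and LPS/HI from 11.60 (median 11.68) to 11.74. LPS lay above every sample of the other groups, which overlapped one another. The LPS difference was 0.22 against Sham (SE 0.04, limma adjusted p = 0.000967) and 0.22 against NaCl/HI (limma adjusted p = 0.00200), while LPS/HI differed from Sham by 0.07 (limma adjusted p = 0.292) and from LPS by -0.15 (limma adjusted p = 0.0560).

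Gusb, the acid beta-glucuronidase, ran from 10.79 (median 11.02) to 11.12 in Sham, with 11.19, 11.21, 11.13, 11.25 and 11.36 in LPS. It ran from 10.78 (median 10.96) to 11.09 in NaCl/HI and from 10.84 (median 10.97) to 11.04 in LPS/HI. LPS again lay above all other samples. Gusb in LPS exceeded Sham by 0.25 (SE 0.07, limma adjusted p = 0.0133) and NaCl/HI by 0.28 (limma adjusted p = 0.0120), and LPS/HI was lower than LPS, with a difference of -0.27 (SE 0.07, limma adjusted p = 0.0446). The last call was lost on leaving out any of 13 samples. Gla, the alpha-galactosidase deficient in Fabry disease, ran from 10.08 (median 10.14) to 10.29 in Sham, was 10.30, 10.30, 10.28, 10.34 and 10.30 in LPS, and ran from 9.95 (median 10.12) to 10.23 in NaCl/HI and from 10.12 (median 10.16) to 10.28 in LPS/HI. LPS lay above NaCl/HI without overlap and touched the top of Sham. Gla was higher in LPS than in NaCl/HI by 0.19 (SE 0.05, limma adjusted p = 0.0217, lost on leaving out either of 2 samples) and differed from Sham by 0.14 (limma adjusted p = 0.0568). Hexa, Neu1, Man2b1, Naglu and Aga were called in no comparison.

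**Figure D3:**
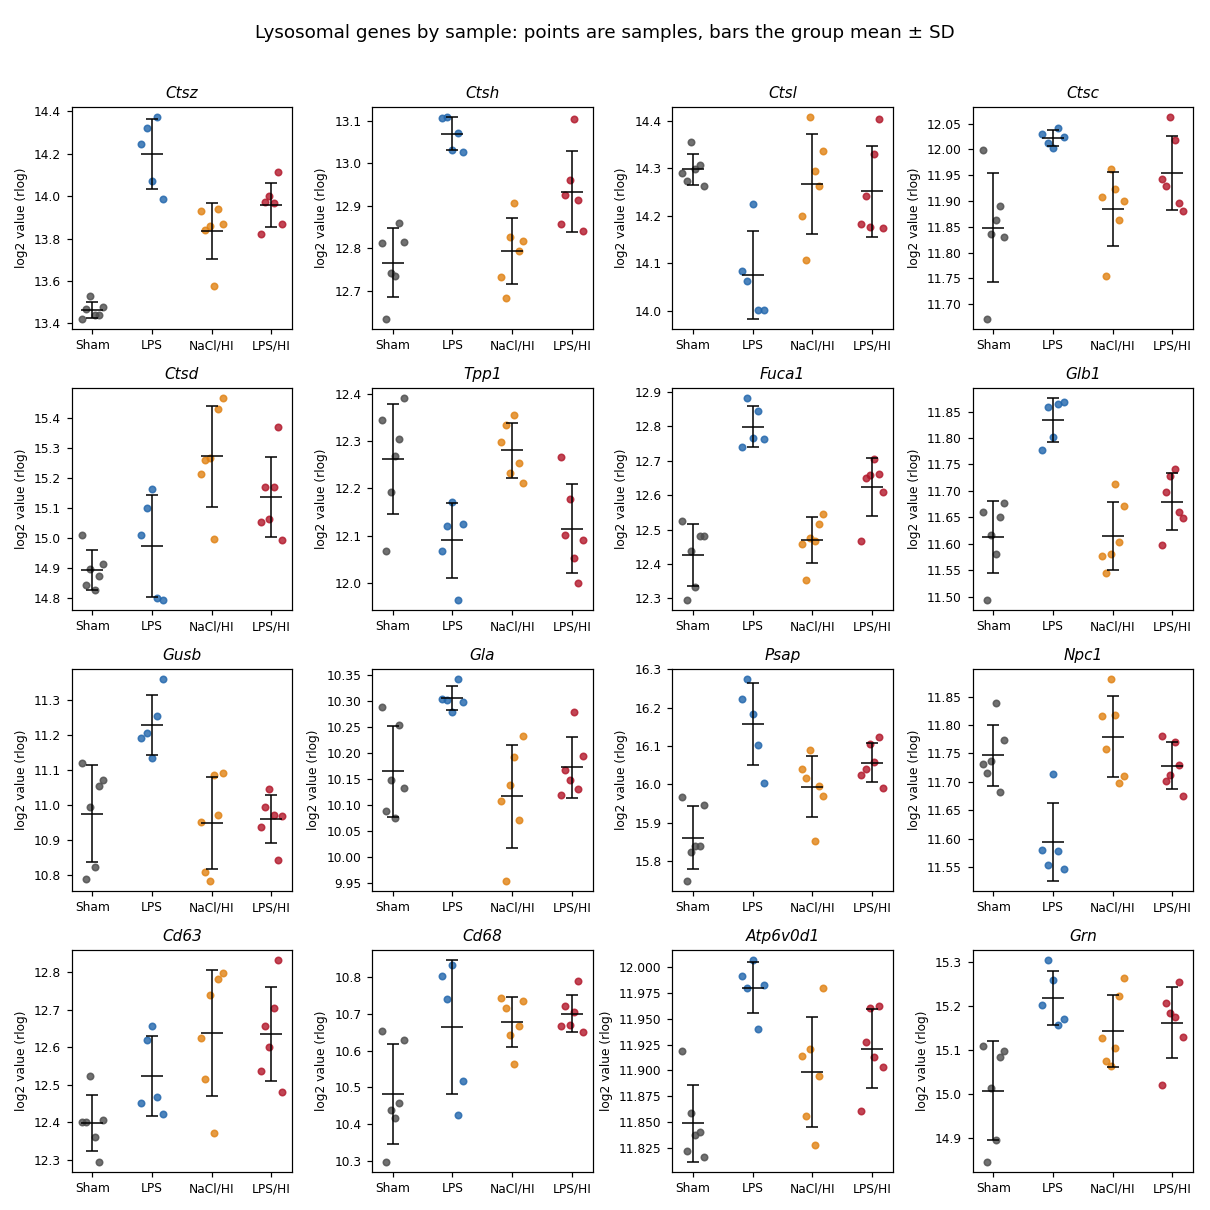
Log2 values (y axis, rlog scale, a separate range in each panel) of the 16 members described sample by sample; points are samples of the Sham, LPS, NaCl/HI and LPS/HI groups, and bars are the group mean ± SD. All LPS points of Ctsz, Ctsh, Ctsc, Fuca1, Glb1, Gusb, Psap, Atp6v0d1 and Grn lie above all Sham points, and all LPS points of Ctsl lie below them. LPS and Sham were separated in this way for 2818 of all 20301 genes.

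In the class of lipid-handling proteins, Psap was called higher (16.7%, background 10.2%) and Npc1 lower (16.7%, background 7.56%) after LPS. The other 4 (Lipa, Npc2, Asah1 and Smpd1) were called in no comparison. Psap encodes prosaposin, the precursor of the activator proteins that sphingolipid hydrolases need. It ran from 15.75 (median 15.84) to 15.97 in Sham. LPS gave 16.22, 16.27, 16.18, 16.10 and 16.004, NaCl/HI ran from 15.85 (median 16.01) to 16.09 and LPS/HI from 15.99 (median 16.05) to 16.12. LPS and LPS/HI lay above all Sham samples, and the 3 treated groups overlapped. Psap rose by 0.30 after LPS (SE 0.06, limma adjusted p = 0.00209) and by 0.20 after LPS/HI (SE 0.06, limma adjusted p = 0.0409). The second call was lost on leaving out any of 11 samples, with the highest limma adjusted p (0.0961) without LPS/HI replicate 5.

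Npc1, the membrane protein that exports cholesterol from the lysosome, ran from 11.68 (median 11.73) to 11.84 in Sham, and LPS gave 11.58, 11.55, 11.71, 11.58 and 11.55. It ran from 11.70 (median 11.79) to 11.88 in NaCl/HI and from 11.67 (median 11.72) to 11.78 in LPS/HI. In LPS, 4 samples lay below all samples of the other groups, and replicate 3 lay within them. Npc1 fell by 0.15 after LPS against Sham (SE 0.04, limma adjusted p = 0.0167) and by 0.19 against NaCl/HI (limma adjusted p = 0.00804). The call against Sham was lost without LPS replicate 2 (limma adjusted p = 0.0504). Npc2, the soluble partner that hands cholesterol to Npc1, differed from Sham by 0.08 after LPS (limma adjusted p = 0.288).

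Of the 8 membrane proteins and channels, none was called after LPS (backgrounds 10.2% higher and 7.56% lower). These are too few genes to set that against those shares. Cd63 and Cd68 were called higher after LPS/HI against Sham (25%, background 5.3%). Cd63 is a tetraspanin of late endosomes and lysosomes. It ran from 12.30 (median 12.40) to 12.52 in Sham, was 12.45, 12.62, 12.66, 12.47 and 12.42 in LPS, and ran from 12.37 (median 12.68) to 12.80 in NaCl/HI and from 12.48 (median 12.63) to 12.83 in LPS/HI. All groups overlapped. Cd63 rose by 0.24 after LPS/HI (SE 0.07, limma adjusted p = 0.0435), and the NaCl/HI difference was also 0.24, with a limma adjusted p of 0.169.

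Cd68, a heavily glycosylated lysosomal protein used as a stain for phagocytic microglia, ran from 10.30 (median 10.45) to 10.65 in Sham. LPS gave 10.80, 10.74, 10.84, 10.43 and 10.52, so that replicates 4 and 5 lay among the Sham samples and the other 3 above them. NaCl/HI ran from 10.56 (median 10.69) to 10.74 and LPS/HI from 10.65 (median 10.69) to 10.79. The LPS/HI and Sham groups met at their edges. Cd68 rose by 0.22 after LPS/HI (SE 0.07, limma adjusted p = 0.0482), and the differences of 0.20 after NaCl/HI (limma adjusted p = 0.204) and 0.18 after LPS (limma adjusted p = 0.0803) were not called. Leaving out any of 10 samples for Cd63, or 15 for Cd68, ended the call. The 2 most used lysosomal membrane markers were not called: Lamp1 differed from Sham by -0.08 after LPS (limma adjusted p = 0.274), by -0.00077 after NaCl/HI (limma adjusted p = 0.997) and by -0.01 after LPS/HI (limma adjusted p = 0.950), and Lamp2 by -0.18, -0.14 and -0.14. Scarb2, Laptm5, Cln3 and Mcoln1 were not called either.

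Of the 5 proton pump genes, Atp6v0d1 was called higher after LPS (20%, background 10.2%). It encodes the d subunit of the membrane sector found in most tissues. It ran from 11.82 (median 11.84) to 11.92 in Sham, was 11.99, 11.98, 12.01, 11.94 and 11.98 in LPS, and ran from 11.83 (median 11.90) to 11.98 in NaCl/HI and from 11.86 (median 11.92) to 11.96 in LPS/HI. LPS lay above Sham and overlapped the HI groups. The difference from Sham was 0.13 (SE 0.03, limma adjusted p = 0.0115). The smallest range of group means of all 42 members belonged to another gene of this class, the accessory subunit Atp6ap1 (0.04). Atp6v1a and Atp6v1b2, subunits of the cytosolic sector that splits ATP, differed from Sham by 0.13 and 0.18 after NaCl/HI, with limma adjusted p values of 0.233 and 0.168.

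The 2 regulators were Grn and Tfeb. Grn encodes progranulin, a secreted and lysosomal protein whose loss causes frontotemporal dementia or a ceroid lipofuscinosis. It ran from 14.85 (median 15.05) to 15.11 in Sham, and LPS gave 15.20, 15.30, 15.26, 15.16 and 15.17. NaCl/HI ran from 15.06 (median 15.12) to 15.26 and LPS/HI from 15.02 (median 15.18) to 15.25. LPS lay above Sham, and the other groups overlapped. Grn rose by 0.21 after LPS (SE 0.06, limma adjusted p = 0.0206), a call lost on leaving out any of 3 samples, and its differences after NaCl/HI (0.13) and LPS/HI (0.15) were not called.

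Tfeb is described here for its role, since it was not called. Sham ran from 9.21 (median 9.32) to 9.36 and LPS gave 9.43, 9.71, 9.60, 9.38 and 9.46. NaCl/HI ran from 9.28 (median 9.54) to 9.65 and LPS/HI from 9.16 (median 9.52) to 9.56. LPS lay just above Sham, and both HI groups reached below the top of Sham through 1 sample. The differences from Sham were 0.20 after LPS (limma adjusted p = 0.0694), 0.21 after NaCl/HI (limma adjusted p = 0.205) and 0.14 after LPS/HI (limma adjusted p = 0.237). Among the 5 members with the 8-base palindrome, 1 was called higher after LPS, Atp6v0d1, where 10.2% of all genes were, and after LPS the differences of the other 4 from Sham ran from -0.08 for Lamp1 to 0.08 for Ctsd. Among the 3 with the 6-base core alone, Glb1 was called higher after LPS and Cd63 after LPS/HI (5.3% of all genes), and Ctsf was called in neither. These are too few genes to set against those shares.

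**Figure D4:**
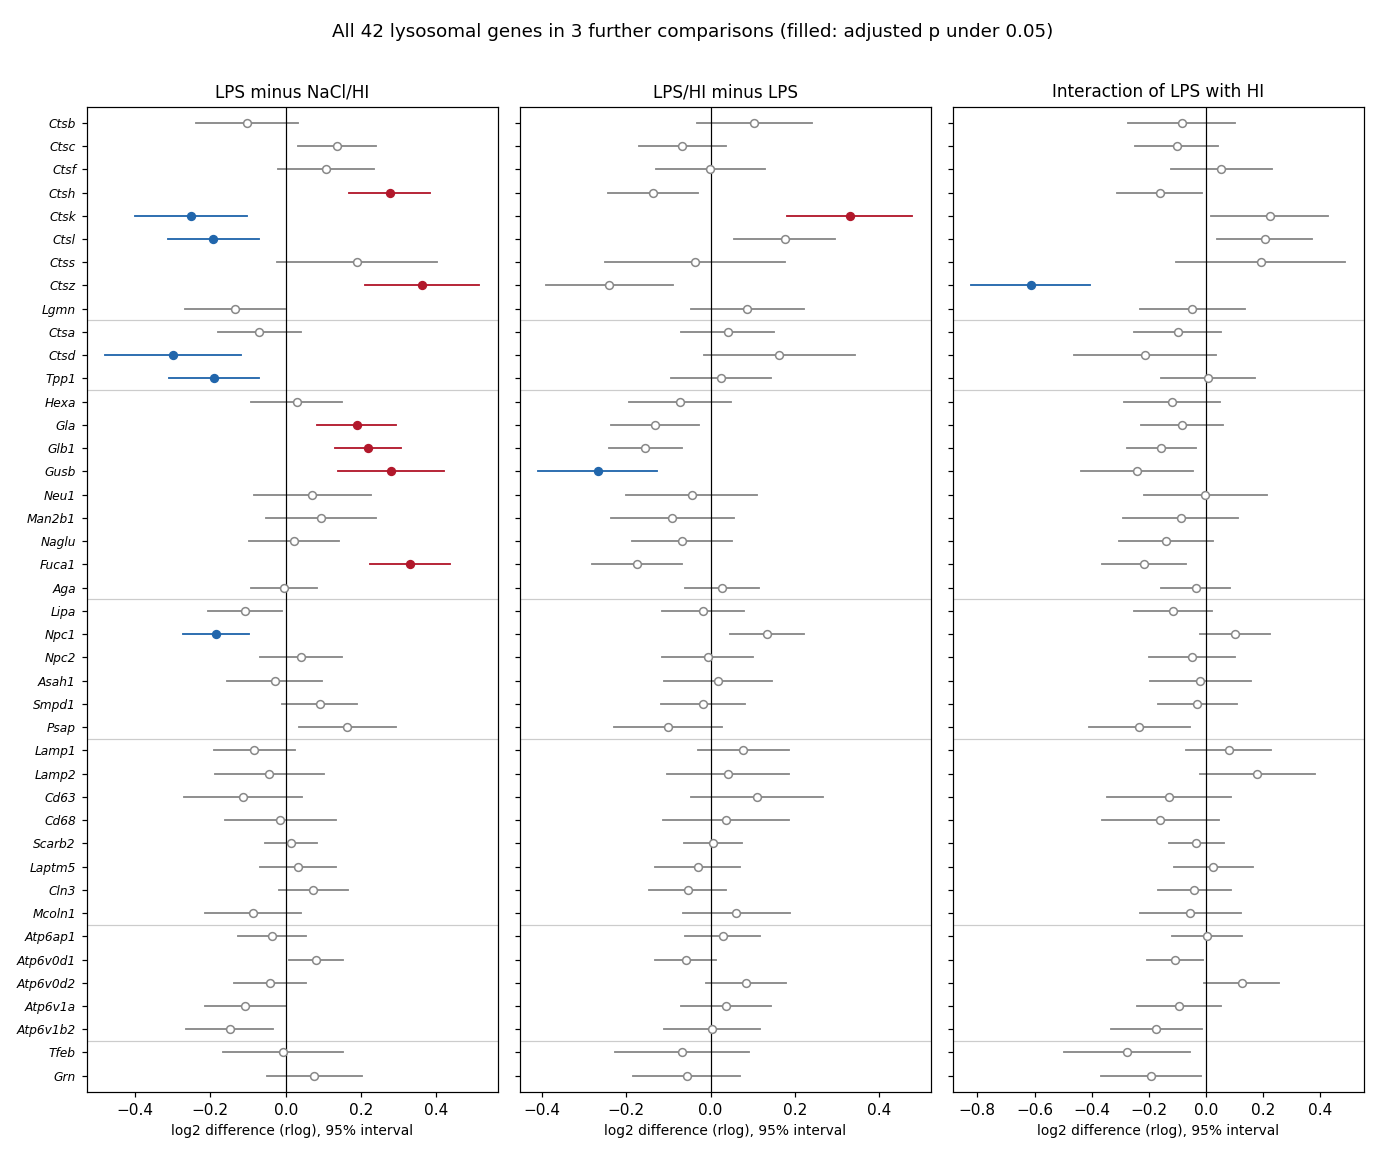
Log2 difference (x axis, rlog scale) of each of the 42 members for LPS minus NaCl/HI, LPS/HI minus LPS and the interaction of LPS with HI, with 95% confidence intervals from limma; filled red and blue points are members called higher and lower, and open grey points were not called. Of the 3 panels, the first holds 11 called members, the second Ctsk and Gusb, and the third Ctsz alone (-0.61).

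**Figure D5:**
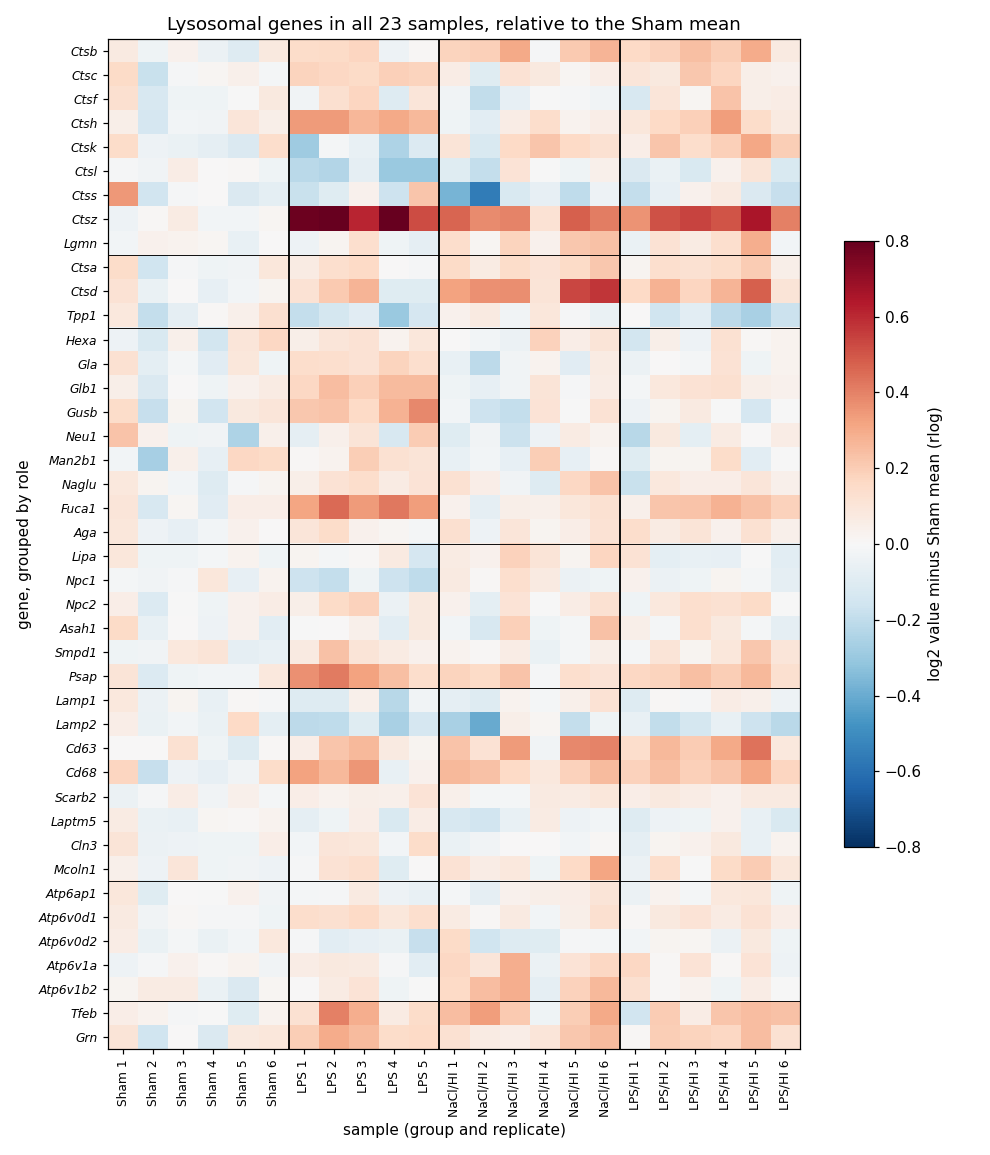
Log2 value minus the Sham mean of the same gene (colour, rlog scale) for the 42 members (rows, grouped by role) in the 23 samples (columns, grouped by treatment and named by group and replicate). Ctsz is above the Sham mean in all treated samples, and Ctsd and Cd63 are higher in the other 5 NaCl/HI samples than in replicate 4 of that group.

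A second list held 100 other lysosomal genes, of which 93 were in the table. After LPS against Sham, 22 of the 93 were called higher and 5 lower, with a median of 0.05; these are 23.7% and 5.38% of the list, where 10.2% and 7.56% of all genes were called. The largest differences among those called higher were those of Lamtor1, part of the complex that anchors mTORC1 signalling at the lysosome (0.46, limma adjusted p = 0.0129), Tfec, a relative of Tfeb (0.40, limma adjusted p = 0.00118), and Gm2a, the ganglioside activator protein (0.35, limma adjusted p = 0.000650). Those that fell included the sialomucin Cd164 (-0.38, limma adjusted p = 0.000704) and the sulfatase Arsb (-0.24, limma adjusted p = 0.0145). Of the genes found in the table, the 32 hydrolases gave 8 higher and 2 lower (25% and 6.25%), the 6 cofactors and inhibitors 2 and 0, the 23 membrane proteins 2 and 2 (8.70% each way), the 11 proton pump subunits 2 and 0 (18.2% higher), the 6 sorting genes 3 and 1, and the 15 regulators 5 and 0 (33.3% higher). The membrane proteins thus lay close to the shares over all genes.

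After NaCl/HI, 1 of the 93 was called (1.08%, against 0.00985% of all genes called higher), Gpnmb, a glycoprotein of lysosomes and phagosomes, which was higher by 1.02 than in Sham (SE 0.16, limma adjusted p = 0.0350) although the groups overlapped; it was also lower in LPS than in NaCl/HI (-0.79, limma adjusted p = 0.00500). After LPS/HI, 10 were called higher (10.8%, against 5.3% of all genes) and 3 lower (3.23%, against 3.48%). Lamtor1 (0.66, limma adjusted p = 0.00300), the channel Mcoln2 (0.42, limma adjusted p = 0.0305) and the acid phosphatase Acp5 (0.33, limma adjusted p = 0.0310) led the first, and Cd164 (-0.30), Tfe3 (-0.14) and Gnptab (-0.14) were the 3 that fell. LPS against NaCl/HI gave 8 higher (8.60%, against 5.32% of all genes), among them Tfec (0.48) and Gm2a (0.30), and 6 lower (6.45%, against 3.66%), among them Arsb (-0.33) and Gpnmb. No gene of the second list was called for the interaction by limma, with 22 of the 93 (23.7%) at an unadjusted p under 0.05, against 15.1% of all genes.

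The markers of the labelled cell type were high in every group. On the same scale, not per length, all 14 microglia markers found lay between the 91.7th and the 99.9th percentile of genes by mean, and their summed level ran between 18.08 and 18.43 on the log2 scale over all samples, although 6 of the 14 were called lower and 3 higher after LPS against Sham. Cell cycle genes, which mark a state and not a cell type, and markers of other cells moved with the groups. The summed level of 5 cell cycle genes lay between 14.34 and 14.72 in Sham, 14.97 and 15.48 in LPS, 14.57 and 14.78 in NaCl/HI and 14.72 and 15.08 in LPS/HI, and all 5 were called higher in LPS and in LPS/HI than in Sham. The 9 markers of border-associated macrophages summed to between 15.22 and 15.99 in Sham and between 14.90 and 15.37 in LPS, with 1 called higher and 3 lower. The 14 neutrophil markers summed to between 12.26 and 12.63 in Sham and between 12.57 and 13.64 in LPS/HI, with 6 called higher and none lower for that pair of groups. After LPS alone their sum lay between 12.52 and 12.73, with Csf3r called higher against Sham and the granule protein genes Ngp (-1.07, limma adjusted p = 0.00261) and Camp (-0.71, limma adjusted p = 0.0442) called lower. The granule protease gene Elane stayed near 0 (mean 0.33). Of the 9 markers of mural cells and fibroblasts, 5 were called higher in LPS/HI than in Sham. After LPS against Sham, none of the 8 neuron markers had a positive difference and 4 were called lower, with sums between 11.49 and 11.77 in Sham and between 11.34 and 11.59 in LPS. Of the 9 endothelial markers 1 was called higher and 3 lower, with sums between 14.68 and 14.87 in Sham and between 14.55 and 14.78 in LPS, and of the 8 monocyte markers 1 was called, Plac8, which was higher by 1.17 (limma adjusted p = 2.86e-06). Of the 7 astrocyte markers 1 was called higher, and of the 5 erythrocyte and 7 oligodendrocyte lineage markers none was called. The part of these markers in the differences of the lysosomal genes was not tested.

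The libraries carried the numbers 1 to 23, of which 1 to 12 belonged to replicates 1 to 3 of each group and 13 to 23 to the others. The sources used here do not say whether the lower and the higher numbers were prepared apart. The LPS difference of Ctsz from Sham was 0.74 among the lower numbers and 0.73 among the higher, and that of Fuca1 was 0.38 and 0.37. Among the 31 called differences between 2 groups, the widest gap was that of Ctsd in LPS against NaCl/HI, at -0.16 and -0.50, followed by Psap in LPS against Sham, at 0.38 and 0.18.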

How the data were processed

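Microglial RNA from 23 samples was sequenced by the authors after TruSeq v2 library preparation. Per the submitters' processing notes, reads were checked with FastQC 0.11.9 and MultiQC 1.14 and quantified with kallisto 0.48.0 on mRatBN7.2; in DESeq2 the authors dropped weakly counted genes, merged rows of protein-coding genes that shared a symbol, transformed the estimates by rlog and took out 3 surrogate variables. The table they deposited is thus on a log2 scale and runs from -1.35 to 23.4. Depth is unknown, so neither a count test nor an interval for counting error was possible. Because the surrogate variables were removed with the group means kept, p-values may be too low. Replicates are numbered samples of a group; pups of different litters were randomized to the groups, but the litter of each sample is not given in the sources used here, so p-values measure the spread between these samples.

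Groups were taken from the sample titles. All 20301 genes were fitted in 1 model of 23 samples with limma 3.58.1 (R 4.3.3), with a variance trend and the residual degrees of freedom lowered from 19 to 16, and with Benjamini-Hochberg adjustment over all genes; calls needed an adjusted p under 0.05. Summaries and plots used Python 3.11.15, pandas 2.3.3 and matplotlib 3.10.9, and the fit was tested on simulated data. No member shared its values with another gene, which 209 genes did. The members, the second list, the markers and the tests were chosen with earlier results of these data known. Within each functional class, up to 4 called members with the smallest adjusted p were given sample by sample, 16 in all; of the second list, up to 3 called genes each way per comparison were named, apart from some that are not reported here. Alternatives were the degrees of freedom, the trend, the samples fitted, a replicate block, a library term, a filter on low values, quantile normalization, median centring, array weights, the exact Wilcoxon test, a fold threshold of 2 and leaving out each sample.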

Additional observations from a re-analysis of the deposited data

Results flagged for a closer look

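Values of the 16 members in each of the 4 groups were examined for a sample far from the rest of its group (64 combinations, of which chance flags about 1 in 20), and 2 stood apart. Ctsz in NaCl/HI replicate 4 was at 13.58, where the other 5 samples lay between 13.84 and 13.94. Npc1 in LPS replicate 3 was at 11.71, where the other 4 lay between 11.55 and 11.58. The LPS difference of Ctsz was smaller with HI than without it by the test of the interaction itself, with a value of -0.61 (limma adjusted p = 0.0121). The call was lost with a replicate block. The control group was injected with saline with HI, had no injection listed without HI, and differed in the tissue taken. HI, injection and tissue thus cannot be told apart in this value.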

How the results depend on the processing

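The 32 called combinations of member and comparison kept their direction under every alternative that gave a value. The interaction value of Ctsz had none with only 2 groups fitted or by the Wilcoxon test. The median member differences moved by less than 0.044, the SD between samples of the members' median deviation from the group mean. Several of these medians were themselves smaller, such as 0.04 for NaCl/HI against Sham, so this cannot show that they were stable. Still called were 32 with 19 residual degrees of freedom, 32 without the lowest 25% of genes, 31 with a library term, 30 with array weights, 29 without a trend, 28 after quantile normalization, 25 after median centring, 19 with a replicate block, 15 of 31 by the exact Wilcoxon test, 11 of 31 with only the 2 groups fitted and 0 with a fold above 2; 17 were called whichever single sample was left out. For LPS against Sham, 12 called members became 7 with the 2 groups alone, 0 with the fold threshold and 9 to 14 on leaving out 1 sample. For NaCl/HI against Sham, 0 became 2 with 19 degrees of freedom, 2 with quantile normalization, 5 with array weights and 0 to 6 on leaving out 1 sample. For LPS/HI against Sham, 6 became 10 with 19 degrees of freedom, 2 with the 2 groups alone, 1 with the replicate block, 2 with median centring, 26 with array weights, 0 with the fold threshold and 2 to 8 on leaving out 1 sample. For LPS/HI against LPS, 2 became 6 with 19 degrees of freedom, 1 without a trend, 0 with the 2 groups alone, 0 with the replicate block, 1 with quantile normalization, 5 with median centring (1 higher and 4 lower), 10 with array weights, 0 by the Wilcoxon test and 0 with the fold threshold. On leaving out 1 sample it was 0 to 4: 0 when LPS replicate 1 or 4, or replicate 2 or 5 of LPS/HI, was dropped, 4 without NaCl/HI replicate 4, and 1 without Sham replicate 3 or 6, LPS replicate 2 or 5, NaCl/HI replicate 1 or 5, or LPS/HI replicate 1, 4 or 6. For LPS/HI against NaCl/HI, 0 became 9 with array weights. For LPS against NaCl/HI, 11 became 2 with the 2 groups alone, 7 with the replicate block, 0 by the Wilcoxon test and 0 with the fold threshold, and 6 to 11 on leaving out 1 sample (7 without LPS replicate 1 or NaCl/HI replicate 5, 6 without LPS replicate 4). For the interaction, 1 became 0 with the replicate block, 8 with array weights and 0 with the fold threshold. Over all genes the Wilcoxon test called none for LPS/HI against LPS, where its smallest adjusted p was 0.104. It also called none for LPS against NaCl/HI, where its smallest adjusted p was 0.0593. At the same group sizes it called 3887 genes for LPS against Sham. The cause of the changes in these counts was not tested. The estimation of the array weights stopped before it converged, and with them 3.21% to 42.2% of all genes were called per comparison. Deviations of same-numbered samples correlated between -0.475 and 0.470, over 0.1 in 9 of 33 pairs, and 5 of 23 samples correlated best with their own number. The 3 surrogate variables had been removed before, which can take out variation that samples share. These values therefore cannot show whether the replicate numbers pair the samples. The unknown depth limits what can be said of weakly expressed members.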
